A study of Arabidopsis thaliana with 9 samples.

Results

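Kelch F-box proteins are substrate receptors of SCF ubiquitin ligases: the F-box binds the SKP1-like subunit of the ligase and the kelch repeats bind the protein to be degraded. In Arabidopsis, the KISS ME DEADLY (KMD) proteins, also called KFB proteins, are known to direct the turnover of phenylalanine ammonia-lyase, the entry enzyme of the phenylpropanoid pathway, and of type-B response regulators, the transcription factors of the cytokinin response. A related Arabidopsis protein, encoded by AT1G23390, is known to act on chalcone synthase, the entry enzyme of flavonoid synthesis. The genes described here are KMD1 (KFB20, AT1G80440), KMD2 (KFB01, AT1G15670) and AT1G23390. They are 3 of 5 loci listed by name as this group, and 3 of the 25320 genes in the table; the other 2 loci were not analysed here. They were selected on transcript levels in these same 9 libraries, with the cold against control differences in view, so the levels of the 3 genes and their differences in all comparisons are given as a description. How many of them passed the threshold used for all genes is printed beside the share of all genes, and again where the processing is varied. Nothing is read from these counts.

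Transcripts were measured in stems and leaves of wild-type Arabidopsis thaliana seedlings, grown in soil to 2 weeks of age, in 9 libraries that form 3 groups of 3. Control plants were kept at room temperature or taken before stress (day 0), and cold-once plants (day 1) and repeated-cold plants (day 4) had 1 or 4 cycles of 6 h at 4 °C followed by 18 h at room temperature. A further 6 h at 0 °C is listed for both cold groups, and the labels do not place sampling before or after it; against control, any effect of this step cannot be told apart from that of the cycles. Day and plant age differed with the group as well. The sample fields used here hold no hour of sampling, so any part of time of day was not tested. The series title names low temperature memory and H3K4me3, a histone mark of active genes. Setting cold groups against control asks about the response to cold, and repeated cold against cold once asks about repetition. Levels are FPKM, fragments per kilobase of gene model and scaled to library size, which also allows levels of different genes to be compared. Library sizes implied by the smallest steps between values were 17.98 to 21.49 M reads.

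All 3 genes lie on chromosome 1 and have a single exon. KMD1 spans chr1:30241452-30243176 on the plus strand (TAIR10.1), KMD2 chr1:5389952-5391672 on the plus strand, and AT1G23390 chr1:8308965-8310916 on the minus strand. No other annotated gene overlaps any of them, and the longest identical run between KMD1 and KMD2 is 17 bases, against 12 between KMD1 and AT1G23390 and 10 between KMD2 and AT1G23390. The 250 bases before each annotated start are shown, 5′ to 3′ on the strand of the gene, because the 3 transcripts moved together in the libraries and these are the sequences next to their starts. Capitals mark the only match to the motifs searched.
KMD1: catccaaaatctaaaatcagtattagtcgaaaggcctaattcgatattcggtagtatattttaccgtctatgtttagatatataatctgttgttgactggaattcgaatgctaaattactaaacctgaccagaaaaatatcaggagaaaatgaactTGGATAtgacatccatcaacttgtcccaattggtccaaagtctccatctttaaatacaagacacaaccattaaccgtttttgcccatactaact
KMD2: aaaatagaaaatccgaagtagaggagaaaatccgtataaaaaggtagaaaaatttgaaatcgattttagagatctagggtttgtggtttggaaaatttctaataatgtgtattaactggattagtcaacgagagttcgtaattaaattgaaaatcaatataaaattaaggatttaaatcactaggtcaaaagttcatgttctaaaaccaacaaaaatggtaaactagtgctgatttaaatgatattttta
AT1G23390: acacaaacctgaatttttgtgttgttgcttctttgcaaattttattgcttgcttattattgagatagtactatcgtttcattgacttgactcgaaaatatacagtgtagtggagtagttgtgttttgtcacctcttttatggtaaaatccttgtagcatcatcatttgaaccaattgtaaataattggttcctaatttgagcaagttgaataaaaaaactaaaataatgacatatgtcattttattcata
These windows are chr1:30241202-30241451, chr1:5389702-5389951 and chr1:8310917-8311166, read from the RefSeq sequence of TAIR10.1. Both strands were searched for 5 motifs: CCGAC, the core of the element bound by CBF cold-response factors; AAAATATCT, the evening element; CACGTG, the G-box; ACCTACC, an AC element of phenylpropanoid promoters; and TATCCA, a sugar-response element. The match in KMD1 is TATCCA on the opposite strand, 94 to 89 bases before the start. Among 23602 promoters of the same length, 13.8% held TATCCA, 12.3% CCGAC, 7.07% CACGTG, 2.45% AAAATATCT and 1.18% ACCTACC. No match says only that these letters are not in these windows.

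Among the 56 tested genes annotated as both F-box and kelch, KMD1 had the highest level in control plants. Its differences after cold were among the lowest of all tested genes. Its level was 177, 194 and 181 FPKM in the control libraries, 5.11, 8.72 and 12.1 in the cold-once libraries, and 15.9, 14.8 and 18.8 in the repeated-cold libraries. The 3 groups did not overlap: control was the highest, repeated cold lay between, and cold once was the lowest. Mean KMD1 was 184 ± 8.95 FPKM (SD, n = 3) in control, 8.65 ± 3.5 after cold once and 16.5 ± 2.1 after repeated cold. The mean was thus 21.3-fold lower after 1 cycle and 11.1-fold lower after 4 cycles than in control, and repeated cold was 1.91 times cold once. The control libraries differed little among themselves, whereas the highest and lowest cold-once libraries differed by more than their counting error, which was at most 7.5% (178 reads in the shallowest value).

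KMD2, the close relative of KMD1, was expressed at a much lower level and kept the same order of groups. It stood at 15, 15.6 and 14.9 FPKM in control, 3.66, 2.18 and 2.86 after cold once, and 6.56, 7.37 and 5.2 after repeated cold. Again every repeated-cold library lay above every cold-once library and below every control library. Mean KMD2 was 15.2 ± 0.401 FPKM (SD, n = 3) in control, 2.9 ± 0.737 after cold once and 6.38 ± 1.09 after repeated cold, which is 5.23-fold and 2.38-fold lower than control. Repeated cold was 2.2 times cold once. At 77 to 555 reads per library, the counting error of KMD2 was at most 11.4%.

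AT1G23390, whose known target is chalcone synthase, had a control level near that of KMD1. Its level was 152, 175 and 154 FPKM in control, 9.49, 9.25 and 14.8 after cold once, and 22.9, 15.4 and 26.8 after repeated cold. The groups did not overlap, but the highest cold-once library and the lowest repeated-cold library were close to each other. Mean AT1G23390 was 160 ± 12.6 FPKM (SD, n = 3) in control, 11.2 ± 3.11 after cold once and 21.7 ± 5.82 after repeated cold, or 14.4-fold and 7.4-fold lower than control. Its repeated-cold mean was 1.94 times the cold-once mean, and its counting error was at most 5.2% (370 reads or more). In bulk tissue, fewer cells that express a gene and less RNA per cell cannot be told apart.

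**Figure D1:**
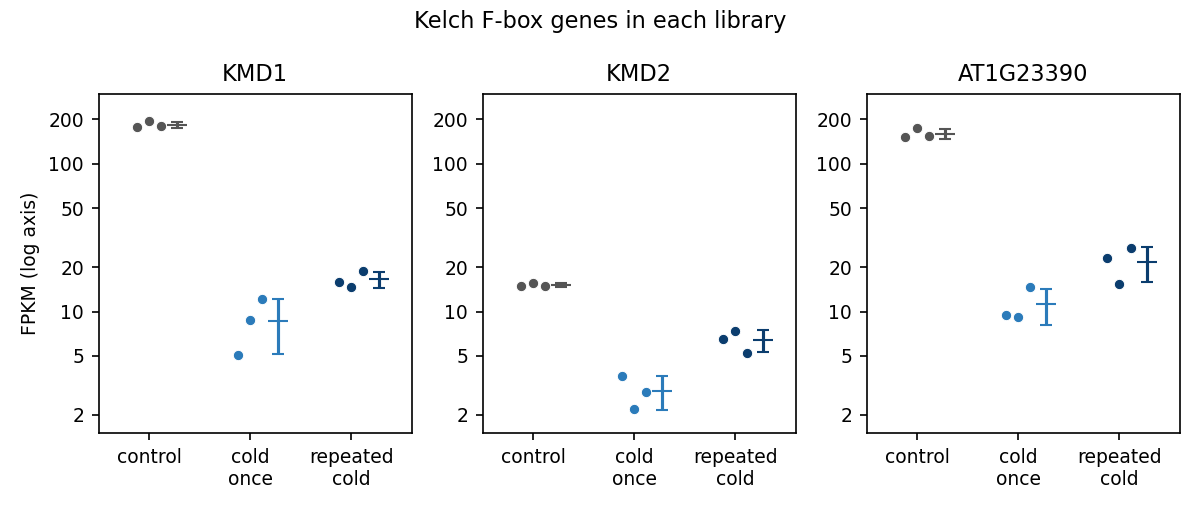
Levels of KMD1, KMD2 and AT1G23390 in FPKM on a log axis, 1 point per library, with the mean and SD of each group of 3 libraries beside the points. In each gene the control libraries are the highest, the repeated-cold libraries lie between, and the cold-once libraries are the lowest, with no overlap between groups.

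On the log2(FPKM + 1) scale, fitted with limma over all 17740 genes that passed the filter of at least 1 FPKM in at least 3 libraries, the 3 genes kept this order. All 3 passed the filter. KMD1 differed from control by -4.33 ± 0.23 (log2 difference ± SE) after cold once and by -3.41 ± 0.23 after repeated cold. KMD2 differed by -2.07 ± 0.16 and -1.14 ± 0.16, and AT1G23390 by -3.76 ± 0.22 and -2.86 ± 0.22. Counted from the lowest difference among all tested genes, KMD1 ranked 3, AT1G23390 14 and KMD2 267 after cold once, and 25, 51 and 844 after repeated cold. The median of all tested genes was itself -0.16 and -0.10 in these comparisons, so the differences of KMD1 relative to it were -4.17 and -3.31, those of KMD2 -1.91 and -1.05, and those of AT1G23390 -3.59 and -2.77. Between repeated cold and cold once, the differences were 0.92 ± 0.23 for KMD1, 0.93 ± 0.16 for KMD2 and 0.89 ± 0.22 for AT1G23390, beside an all-gene median of 0.06. The added 1 FPKM makes these log2 differences smaller than the ratios of means, most of all for the low KMD2.

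A gene was called where its Benjamini-Hochberg adjusted p from limma was under 0.05. After cold once, 52.3% of all tested genes were called, with 33.6% of all tested genes called lower, and in 40.6% every cold-once library was below every control library. After repeated cold, 39.5% were called, with 24.9% of all tested genes called lower, and 31.7% had every repeated-cold library below control. Lower calls were 64.3% of all calls after cold once and 63% after repeated cold, but 49.7% and 48.9% with median-of-ratios scaling. The 3 kelch F-box genes were on the lower side of both rules in both comparisons, which share the same control libraries. Between repeated cold and cold once, 1.27% of genes were called, 0.738% as higher, and in 13.9% every repeated-cold library was above every cold-once library; the 3 genes all met the latter rule, and KMD2 alone was past the call rule. These libraries were used in the choice of the genes, so these counts are no test of them.

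The proportions among the 3 genes shifted between control and cold. KMD1 was 11.8 to 12.4 times as abundant as KMD2 in the control libraries, but 1.4 to 4.24 times after cold once and 2 to 3.62 times after repeated cold. AT1G23390 was 10.1 to 11.2 times as abundant as KMD2 in control, 2.6 to 5.17 times after cold once and 2.08 to 5.15 times after repeated cold. KMD1 exceeded AT1G23390 in every control library, with a ratio of 1.11 to 1.18. In the cold libraries it was below it in all 6, with a ratio of 0.539 to 0.942 after cold once and 0.695 to 0.962 after repeated cold. Over the 9 libraries, which share the 3 groups, Pearson's r of the log2 levels was 0.992 for KMD1 and AT1G23390, 0.932 for AT1G23390 and KMD2, and 0.921 for KMD1 and KMD2.

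Many other transcripts followed the same course over these libraries. Among 12400 tested genes with a mean of at least 5 FPKM, 733 had an r above 0.95 with KMD1, 370 with KMD2 and 775 with AT1G23390. The genes nearest to KMD1 were AT1G17160, a pfkB-like carbohydrate kinase family gene (r = 0.996), UVR8, the ultraviolet-B receptor (0.995), and AT1G26800, a RING/U-box domain gene (0.995). UVR8 stood at 79.4 ± 5.85 FPKM (SD, n = 3) in control, 22 ± 1.84 after cold once and 29.5 ± 0.425 after repeated cold. Nearest to KMD2 was AT3G12290 (0.995), named FOLD2 in the deposited annotation and described there as an amino acid dehydrogenase family protein. Next to it were AT5G63910, which encodes farnesylcysteine lyase (0.994), and AT3G55470, a calcium-dependent lipid-binding domain gene (0.994). For AT1G23390 the nearest were the uncharacterized gene AT2G37480 (0.998), KMD1 itself and BRIZ1, a RING domain gene (0.992 each). The likeness is that of group means in 3 groups of 3, and the sizes differed: AT1G26800 went from 30.2 ± 5.95 to 1.59 ± 0.502 FPKM (SD, n = 3) after cold once, whereas AT3G12290 went from 109 ± 1.29 to 52.2 ± 5.61.

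The annotation deposited with the table names 133 genes as both F-box and kelch, of which 56 were tested. KMD1 and AT1G23390 had the highest control levels of these 56, far above the third, AT4G03030, at 29.5 FPKM, and KMD2 ranked 8. The 3 lowest differences from control after cold once were those of KMD1, AT1G23390 and KMD2, and after repeated cold those of KMD1, AT1G23390 and AT5G43190 (-1.94 ± 0.18), with KMD2 at rank 8. Of all tested genes, 18.7% were called higher and 33.6% lower after cold once, and 14.6% and 24.9% after repeated cold. Of the other 53 family genes, 5 were called higher and 37 lower after cold once, and 3 higher and 24 lower after repeated cold. With values rescaled so that the all-gene median sits near 0, these counts were 6 and 33 (median-of-ratios scaling) or 9 and 27 (quantile normalization) after cold once, and 5 and 21 under either scaling after repeated cold. Of all 17740 tested genes, 4505 were then called higher and 4453 lower after cold once (median-of-ratios), or 4468 and 4421 (quantile). After repeated cold the all-gene counts were 3485 and 3333, or 3366 and 3605. The median log2 difference of the 53 was -0.63 after cold once and -0.42 after repeated cold, beside -0.16 and -0.10 for all tested genes.

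A few family members were on the other side. FKF1, a blue-light receptor of the photoperiodic clock, was the highest in both comparisons with control, at 3.39 ± 1.33 FPKM (SD, n = 3) in control, 28.5 ± 11.7 after cold once and 32.5 ± 9.58 after repeated cold. Its log2 differences were 2.72 ± 0.32 and 2.93 ± 0.32. The next highest were HWS (HAWAIIAN SKIRT) at 0.91 ± 0.15 and AT1G14330 at 0.76 ± 0.21 after cold once, and AT1G67480 at 0.77 ± 0.11 and HWS at 0.50 ± 0.15 after repeated cold. Between repeated cold and cold once, 3 of the other 53 were called higher and none lower, beside 0.738% and 0.536% of all tested genes. The highest differences there were those of AT3G18320 (0.96 ± 0.14), KUF1 (0.94 ± 0.15) and KMD2, followed by KMD1 and AT1G23390, and the lowest those of AT1G14330 (-0.65 ± 0.21), HWS (-0.41 ± 0.15) and AT5G38690 (-0.21 ± 0.13).

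**Figure D2:**
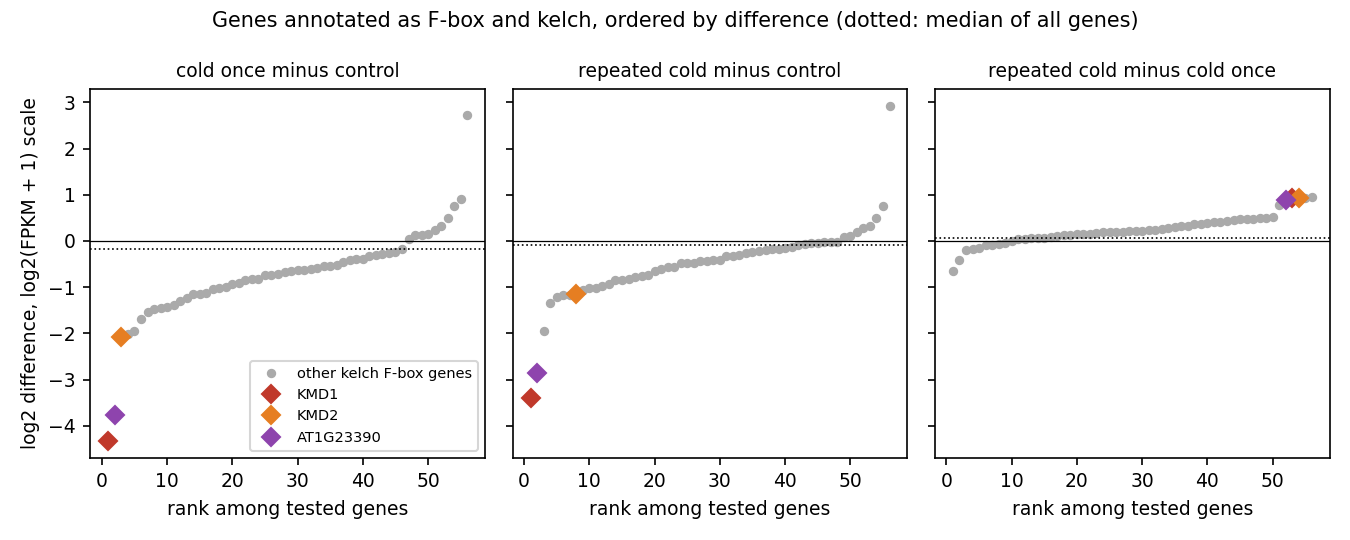
The 56 tested kelch F-box genes ordered by log2 difference on the log2(FPKM + 1) scale, 1 panel per comparison, with rank on the horizontal axis, coloured diamonds for KMD1, KMD2 and AT1G23390, and the median of all tested genes as a dotted line. KMD1 and AT1G23390 are the lowest in both comparisons with control, FKF1 is the single high point there, and the coloured genes sit near the top between repeated cold and cold once.

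The transcripts of phenylalanine ammonia-lyase, whose protein is a known KMD target in Arabidopsis, were mostly higher where KMD1 and KMD2 were lower. Of the 4 PAL genes tested, 3 rose and none fell in either comparison with control, and the median log2 differences of the list were 1.58 and 1.10, beside medians of -0.16 and -0.10 for all genes. Of all tested genes, 18.7% and 14.6% were called higher in these comparisons, and in 24% and 19% every cold library was above every control library. PAL1 stood at 26.3, 21.3 and 23.7 FPKM in control, 118, 139 and 130 after cold once, and 69.1, 58.7 and 92.3 after repeated cold. No PAL1 library of 1 group lay within the range of another, in the reverse order of KMD1. It rose by 2.39 ± 0.16 after cold once (limma adjusted p = 7.53e-06) and by 1.57 ± 0.16 after repeated cold (adjusted p = 0.000119), and was lower in repeated cold than in cold once (-0.83 ± 0.16, adjusted p = 0.0477). Of all genes, 0.536% were called lower in repeated cold than in cold once, and 9.92% had every repeated-cold library below every cold-once library. This last PAL1 call was lost in 11 of 17 alternatives, among them leaving out any 1 library other than replicate 3 of repeated cold (adjusted p up to 0.161).

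PAL2, at 33, 36 and 33.6 FPKM in control, 162, 214 and 225 after cold once and 140, 116 and 164 after repeated cold, had cold libraries all above control and overlapping each other. PAL2 rose by 2.50 ± 0.16 (limma adjusted p = 5.11e-06) and 1.99 ± 0.16 (adjusted p = 2.79e-05). The low PAL4 transcript rose from 2.21 ± 0.371 FPKM (SD, n = 3) to 4.42 ± 0.422 and 3.97 ± 0.718 (adjusted p = 0.00176 and 0.00694, limma). PAL3 did not pass the test in any comparison, at 7.63 ± 0.886, 7.56 ± 0.103 and 6.82 ± 1.7 FPKM. Only transcripts were measured, so nothing is known here of the amount or turnover of any of these proteins.

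Chalcone synthase (TT4/CHS), the enzyme on which the AT1G23390 protein is known to act, rose in both comparisons. Its level was 53.6, 28.7 and 53.9 FPKM in control, 328, 420 and 362 after cold once, and 157, 215 and 160 after repeated cold, so its groups did not overlap and stood in the reverse order of AT1G23390. TT4/CHS rose by 3.05 ± 0.24 after cold once (limma adjusted p = 1.61e-05) and by 1.98 ± 0.24 after repeated cold (adjusted p = 0.000289). The difference of -1.06 ± 0.24 between repeated cold and cold once did not pass (adjusted p = 0.0667; 0.0251 without replicate 2 of control). Of all tested genes, 18.7% were called higher after cold once and 14.6% after repeated cold. In 24% and 19% of them every cold library was above every control library. Every repeated-cold library was below every cold-once library in 9.92%. Of 6 flavonoid genes, TT4/CHS included, 5 were called higher after cold once and 3 after repeated cold, and none was called lower. TT7 and LDOX were called after cold once only, and DFR in neither comparison with control. Of the others, chalcone isomerase (TT5/CHI) rose by 1.89 ± 0.18 and 0.89 ± 0.18 (adjusted p = 4.52e-05 and 0.00411), and flavonol synthase (FLS1) by 2.76 ± 0.43 and 1.27 ± 0.43 (adjusted p = 0.000669 and 0.0408, limma). TT5/CHI was lower in repeated cold than in cold once (-0.999 ± 0.18, adjusted p = 0.0362). The FLS1 call after repeated cold was lost in 7 of 17 alternatives (adjusted p up to 0.133), including leaving out replicate 1 or 2 of control, 3 of cold once, or 1 or 2 of repeated cold. The TT5/CHI call between the cold groups was lost in 9 of 17 (adjusted p up to 0.137) and held, among single libraries left out, only without replicate 2 of control or 1 of cold once.

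Of 17 genes for the steps after PAL, 9 rose and 2 fell after cold once, and 9 rose and 1 fell after repeated cold. The shares of all tested genes were 18.7% higher and 33.6% lower after cold once, and 14.6% and 24.9% after repeated cold. Cinnamate 4-hydroxylase (C4H) went from 48.8 ± 1.06 FPKM (SD, n = 3) to 122 ± 12.3 and 94.5 ± 3.28 (adjusted p = 1.19e-05 and 0.000116, limma), and CAD4, a cinnamyl alcohol dehydrogenase of lignin synthesis, from 39.2 ± 1.87 to 142 ± 7.3 and 116 ± 13.4 (adjusted p = 3.21e-06 and 1.34e-05). The 4-coumarate:CoA ligase gene 4CL1 rose by 1.28 ± 0.16 and 1.04 ± 0.16 (adjusted p = 0.000194 and 0.000963). Its relative 4CL3, linked to flavonoid synthesis, rose from 4.04 ± 0.978 FPKM to 32.6 ± 7.65 after cold once (adjusted p = 7.19e-06) and stood at 9.61 ± 0.525 after repeated cold, lower than after cold once (-1.64 ± 0.18, adjusted p = 0.0116). FAH1, a hydroxylase of sinapate and syringyl lignin synthesis, fell (-0.41 ± 0.10 and -0.54 ± 0.10, adjusted p = 0.00862 and 0.00343, limma), and CAD5 fell after cold once (-0.52 ± 0.16, adjusted p = 0.0221); under median-of-ratios scaling neither was called lower after cold once, and the CAD5 call was also lost without replicate 1 or 3 of control or 2 or 3 of cold once (adjusted p up to 0.0894). Among 4 other regulators of these genes, RFR1, a Mediator subunit that restrains them, rose after cold once (0.60 ± 0.20, adjusted p = 0.0326; up to 0.0969 and not called without any 1 control or cold-once library), and the repressor MYB4 rose after repeated cold (0.82 ± 0.15, adjusted p = 0.00238). SAGL1, another kelch F-box protein known to act on PAL, stood at 9.03 ± 0.891, 9.97 ± 1.1 and 8.81 ± 0.789 FPKM and did not pass the test in any comparison (after quantile scaling, adjusted p = 0.0312 after cold once).

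**Figure D3:**
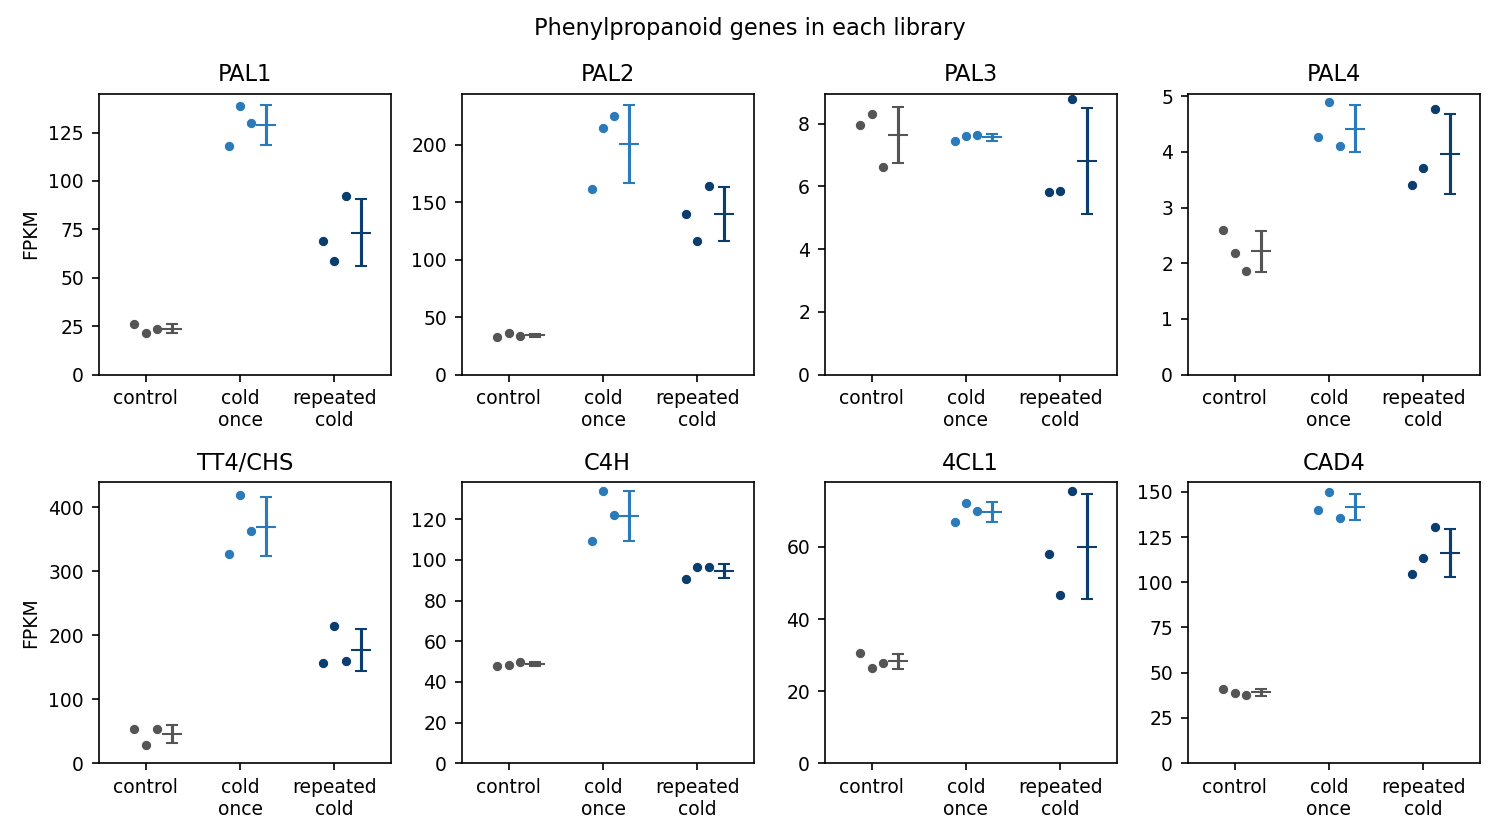
Levels in FPKM, on linear axes from 0, of the 4 PAL genes, chalcone synthase (TT4/CHS), C4H, 4CL1 and CAD4, 1 point per library, with the mean and SD of each group of 3 libraries beside the points. In PAL1, PAL2 and TT4/CHS all cold libraries lie above all control libraries, whereas the PAL3 groups overlap.

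Type-B response regulators, the other known targets of KMD proteins, carry the transcriptional response to cytokinin. Of the 6 tested, 3 fell and none rose after cold once, 1 fell after repeated cold, and the counts were the same under both other scalings. Of all tested genes, 33.6% and 24.9% were called lower in these comparisons, and nothing particular to these regulators is read from the counts. ARR1 went from 17.4 ± 0.585 FPKM (SD, n = 3) to 11 ± 0.423 after cold once (limma adjusted p = 0.00169) and was at 14.4 ± 2.09 after repeated cold (adjusted p = 0.0871). ARR10 fell after cold once (-0.51 ± 0.11, adjusted p = 0.00413), and ARR14 fell in both comparisons (-0.69 ± 0.15 and -0.67 ± 0.15, adjusted p = 0.00433 and 0.00704). ARR2, ARR11 and ARR12 did not pass in either comparison, with control means of 5.12 ± 0.692, 1.18 ± 0.164 and 11.2 ± 0.998 FPKM and cold-once means of 3.83 ± 0.222, 0.704 ± 0.327 and 9.49 ± 0.866. After cold once, ARR2 was called lower in 5 of 17 alternatives and ARR11 in 1 of 16. ARR18 and ARR20 were at or near 0 in every library and were not tested.

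Type-A response regulators are primary cytokinin-response genes that are induced by type-B regulators and dampen the pathway. Of 10 listed, 8 were tested, ARR3 and ARR17 being near 0. Of the 8, 6 rose after cold once (7 under both other scalings) and 8 after repeated cold, and none fell. Of all tested genes, 18.7% and 14.6% were called higher in these comparisons. The median log2 differences of the 8 were 2.45 and 2.23, beside -0.16 and -0.10 for all tested genes. ARR7 stood at 8.04, 12.7 and 7.87 FPKM in control, 115, 121 and 98.6 after cold once, and 81.1, 164 and 122 after repeated cold. The cold libraries of ARR7 were all far above control and overlapped between the cold groups. After cold once and repeated cold, 24% and 19% of all tested genes had every cold library above every control library. ARR7 rose by 3.44 ± 0.25 and 3.52 ± 0.25 (limma adjusted p = 1.15e-05 and 1.76e-05), ARR6 by 3.53 ± 0.29 and 3.28 ± 0.29 (2.17e-05 and 5.61e-05), ARR4 by 2.13 ± 0.12 and 1.85 ± 0.12 (2.77e-06 and 1.02e-05), and ARR5 by 2.77 ± 0.25 and 3.55 ± 0.25 (3.17e-05 and 1.5e-05). ARR8 and ARR16 passed after repeated cold (adjusted p = 0.0147 and 0.0483) and not after cold once (0.119 and 0.357), ARR8 losing its call without replicate 3 of repeated cold (0.0532) and ARR16 in 10 of 17 alternatives, 7 of them single libraries left out (up to 0.119). Between repeated cold and cold once none of the 8 was called. ARR6 was at 0.861 FPKM in replicate 1 of control and near 1 FPKM in the other control libraries. It entered the test through the cold libraries.

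**Figure D4:**
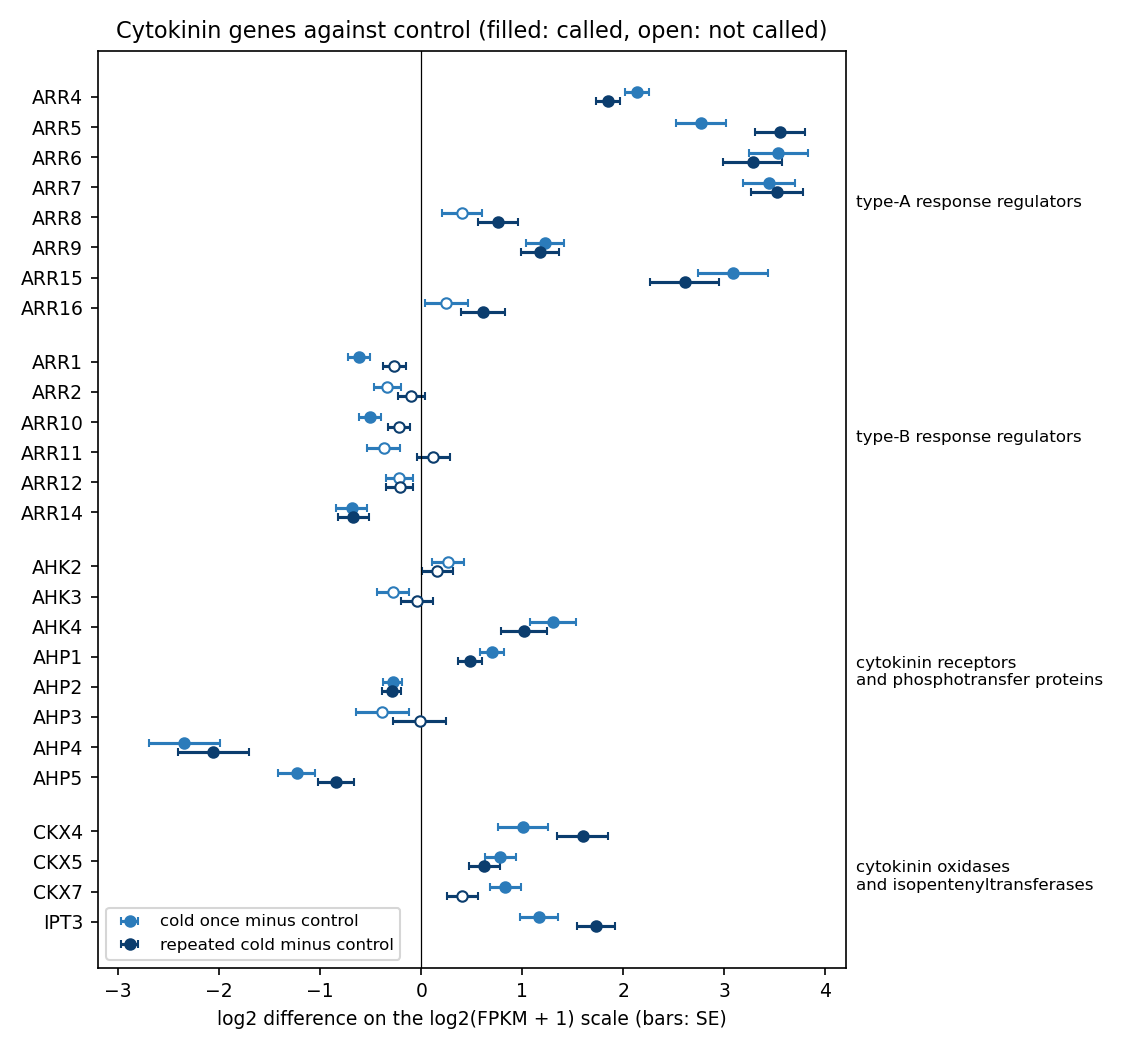
Log2 differences from control on the log2(FPKM + 1) scale, with bars of 1 SE, of the tested cytokinin genes after cold once and repeated cold, filled where the gene was called and open where it was not. The type-A regulators lie at or above 0.25, and the type-B regulators between -0.69 and 0.12.

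Among 8 tested cytokinin receptors and phosphotransfer proteins, 2 rose and 3 fell in each comparison with control. These counts are near the shares of all tested genes, of which 18.7% and 14.6% were called higher and 33.6% and 24.9% lower. The phosphotransfer genes AHP4 and AHP5 fell, with log2 differences of -2.34 ± 0.35 and -1.23 ± 0.18 after cold once (limma adjusted p = 0.000569 and 0.000486) and -2.06 ± 0.35 and -0.85 ± 0.18 after repeated cold (0.00183 and 0.00546). The receptor gene AHK4 rose by 1.31 ± 0.23 and 1.02 ± 0.23 (adjusted p = 0.00134 and 0.0072), and AHP1 by 0.70 ± 0.12 and 0.49 ± 0.12 (0.00111 and 0.0104). Of 11 listed genes for cytokinin synthesis and breakdown, 10 were in the table and 4 were tested. The untested ones were low and went either way after cold once. CKX1 went from 0.498 to 0.176 FPKM and IPT1 from 0.0453 to 0.369 (means). Beside 18.7% and 14.6% of all tested genes called higher, all of the 4 tested rose after cold once and 3 after repeated cold. They were the synthesis gene IPT3 (1.17 ± 0.19 and 1.73 ± 0.19, adjusted p = 0.000788 and 0.000152) and the oxidase genes CKX4 (1.01 ± 0.25 and 1.60 ± 0.25, adjusted p = 0.00807 and 0.00114), CKX5 (0.78 ± 0.15 and 0.63 ± 0.15, 0.00249 and 0.0111) and CKX7, which passed after cold once (0.83 ± 0.16, 0.00191) and not after repeated cold (0.41 ± 0.16, 0.0655, but 0.0129 at the lowest among alternatives). CKX5 was below 1 FPKM in every control library and entered the test through the cold libraries. AHP4 was below 1 FPKM in every cold-once library and entered through the control libraries.

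The subunits that join the F-box receptors into a ligase had log2 differences from control between -0.51 and -0.16. ASK1 and ASK2, the SKP1-like adaptors that bind the F-box, were lower than control, by log2 differences of -0.33 ± 0.09 and -0.51 ± 0.10 after cold once (limma adjusted p = 0.0103 and 0.00211) and of -0.33 ± 0.09 and -0.44 ± 0.10 after repeated cold (0.0157 and 0.00705). The cullin CUL1 was also lower (-0.39 ± 0.10 and -0.31 ± 0.10, adjusted p = 0.00734 and 0.0282), as was the RING subunit RBX1A (-0.35 ± 0.13 and -0.39 ± 0.13, 0.041 and 0.0363). CAND1, the exchange factor of cullins, did not pass (-0.16 ± 0.18 and -0.18 ± 0.18). With median-of-ratios scaling, 1 of these 5 was lower after cold once and 0 after repeated cold, against 4 and 4 above, so these calls depend on the scaling. Without that scaling, 33.6% and 24.9% of all tested genes were called lower. The RBX1A calls were each lost in 8 of 17 alternatives, 6 of them single libraries left out (any control library among them), and the CUL1 call after repeated cold without replicate 1 or 3 of control or 2 or 3 of repeated cold (adjusted p up to 0.105).

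Of the pathway and marker genes named in the text, TT4/CHS, 4CL1, ARR1, ARR6, ARR8, ARR14, AHP4, CKX1, CKX5, ASK2, SAGL1, RFR1, CAB1, RCA, PYK10 and OLEO1 overlap another annotated gene. Whether reads were counted by strand is not given in the sources used here, so part of their values may come from the neighbour. The labelled tissue was checked on marker genes. The sum of 3 leaf genes was 24853 to 26939 FPKM in control, 29167 to 32934 after cold once and 26680 to 32164 after repeated cold. Its members differed in direction: RBCS1A (adjusted p = 0.000333 and 0.00164, limma) and RCA (0.000323 and 0.000178) were called higher after cold once and repeated cold, and CAB1 was called lower (-0.44 ± 0.14 and -0.52 ± 0.14, adjusted p = 0.0278 and 0.0176). The CAB1 calls were lost with median-of-ratios scaling or no filter, and after cold once also without any 1 control or cold-once library, and the RBCS1A calls with no filter. The sum of 5 flower genes was low and uneven, at 7.51, 17.8 and 34 FPKM in control, 0.583, 5.21 and 3.07 after cold once, and 0.548, 22.1 and 0.889 after repeated cold; SEP3 among them was called lower after cold once (-2.07 ± 0.68, limma adjusted p = 0.0282), a call lost without replicate 2 or 3 of control or 1 or 3 of cold once, and AP3 was listed at 0 in 3 cold libraries. Replicate 2 of repeated cold had flower genes within the control range and KMD1 at 14.8, KMD2 at 7.37 and AT1G23390 at 15.4 FPKM. SEP3 was below 1 FPKM in every cold-once library and entered the test through the control libraries. The part of flower tissue in the results was not tested. The 2 root genes summed to 10.7 to 63.6 FPKM over all libraries, nearly all of it from PYK10, which did not pass the test (adjusted p = 0.721 and 0.16). The other, NRT2.1, was called higher, from 0.138 ± 0.088 FPKM (SD, n = 3) in control to 1.31 ± 0.222 after cold once and 1.28 ± 0.849 after repeated cold (adjusted p = 0.00557 and 0.0117, limma). NRT2.1 entered the test through the cold libraries, and the part of root tissue in the results was not tested. The seed gene OLEO1 was at or near 0.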

How the data were processed

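Stems and leaves of 3 groups of 3 libraries were sequenced; groups come from the sample labels, which do not tell whether replicates came from separate cultures; p-values then cover only the spread among these samples, which may be technical. SMARTER mRNA-Seq libraries were made from 0.5 µg of total RNA, per the labels' protocols. The deposited values are FPKM computed by the authors, 1 column per library; the submitters' processing notes list TopHat, Cufflinks and Cuffdiff, with no version. Build and strandedness are not given in the sources used here; gene positions equal those of TAIR10.1 for 25094 of 25099 loci matched. Low values lie on steps of whole reads (tolerance 0.02 read), from which library size and counting error were taken; these cover counting only. A gene of 1 kb listed at 0 had no counted read, but its expected count could still be up to about 3 reads (0.14 to 0.167 FPKM).

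Log2(FPKM + 1) of genes with at least 1 FPKM in at least 3 of 9 libraries (17740 genes) was fitted with limma 3.58.1 (lmFit, eBayes with trend, R 4.3.3) over all groups, and p-values were Benjamini-Hochberg adjusted over all tested genes and called under 0.05. Folds are ratios of mean FPKM. Of the steps, only the limma fit was tested on simulated data, with few changed genes, as many higher as lower. That setting is unlike these data, so it does not bear on the effect of scaling. Figures used Python 3.11.15, numpy 2.4.6, pandas 2.3.3 and matplotlib 3.10.9. Named are the 3 kelch F-box genes, all PAL, type-B regulator and SCF genes, TT4/CHS, up to 3 called genes with the smallest p of each other list and comparison, the 3 nearest genes by Pearson's r, and the 3 highest and lowest family members. Further list genes (TT7, DFR, LDOX, CAD5, FAH1, ARR3, ARR8, ARR16, ARR17, CKX1, IPT1, SAGL1 and the marker genes) were named after their values were seen. Members and the lists (77 genes, 73 in the table, 62 tested) were chosen with earlier results of these data known. Alternatives were pseudocounts of 0.1 and 5, no filter or a minimum of 5 FPKM, median-of-ratios and quantile scaling, only the groups compared, a replicate block, and leaving out each library.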

Additional observations from a re-analysis of the deposited data

How the results depend on the processing

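KMD1, KMD2 and AT1G23390 stayed lower than control and higher in repeated cold than in cold once under every alternative run. The log2 difference ranged from -4.58 to -3.82, -3.53 to -3.14 and 0.63 to 1.18 for KMD1 (cold once against control, repeated cold against control, repeated cold against cold once), from -2.38 to -1.36, -1.25 to -0.83 and 0.53 to 1.13 for KMD2, and from -3.96 to -3.37, -3.03 to -2.64 and 0.72 to 1.11 for AT1G23390. The extremes of KMD2 after cold once came with pseudocounts of 0.1 and 5. The number of called genes was 7552 to 10054 after cold once and 5237 to 7988 after repeated cold. The share of calls that were lower moved with scaling, from 64.3% to 49.7% after cold once under both median-of-ratios (4505 higher, 4453 lower) and quantile scaling (4468 and 4421), and from 63% to 48.9% (3485 and 3333) and 51.7% (3366 and 3605) after repeated cold.

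Repeated cold against cold once was the least stable comparison. Its 226 calls became 112 with no filter, 353 with median-of-ratios scaling (64.3% lower, against 42%; quantile scaling gave 274, 63.1% lower), 7 when only the groups compared were fitted, and 17 to 208 when 1 library was left out, the fewest without replicate 3 of cold once. The number of kelch F-box genes past the threshold there, given as a description, was 1 of 3, but 0 with no filter or with only the groups compared, and 0 to 1 with 1 library left out. Whether replicate numbers pair the samples was not settled. Deviations of same-numbered libraries correlated at -0.108 to 0.463, and those of different numbers at -0.444 to 0.2. With the replicate block, 10054, 7988 and 704 genes were called, against 9278, 7013 and 226 without it. The block put 2 of the 3 kelch F-box genes past the threshold in repeated cold against cold once. Among the single genes checked in the comparisons with control, the sign changed only for ones not called: PAL3 after cold once (0.15 with median-of-ratios and 0.22 with quantile scaling, and -0.0928 to 0.0508 without 1 library), CAND1 after cold once (0.0138 and 0.0110) and after repeated cold (-0.31 to 0.0154 without 1 library), ARR2 after repeated cold (0.00125 and 0.0406), SAGL1 after repeated cold (0.0783 and 0.102, and -0.089 to 0.0402 without 1 library), and BGLU23/PYK10 after cold once (-0.71 to 0.173 without 1 library), in pairs the first value being for median-of-ratios and the second for quantile scaling. The cause was not tested. Depth limits KMD2 most, at 77 reads in its lowest library.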
